A study of Rattus norvegicus with 18 samples.

Results

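The genes followed here were 9 genes of connective tissue and of the meninges, measured in rat dorsal root ganglia: Gjb2, Slc6a13, Ptgds, Aldh1a2, Igf2, Bmp7, Fbln1, Dcn and Cemip, out of 25678 genes in the table. They were found by their symbols. Several were chosen by their measured herb effects, which seemed to run one way in NPP rats and another in Sham rats, so their levels in those 4 groups are a description and carry no test. The question put to them was whether they vary together from library to library as the genes of 1 tissue layer would. All 9 passed the filter on low counts. In the deposited table Cemip and Igf2 lay on chromosome 1, Bmp7 and Ptgds on chromosome 3, Slc6a13 on chromosome 4, Fbln1 and Dcn on chromosome 7, Aldh1a2 on chromosome 8 and Gjb2 on chromosome 15.

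The libraries came from a study of a rat model of neuropathic pain and of Shentong Zhuyu decoction, a traditional preparation made from herbs and animal materials. Each of 6 groups had 3 libraries. NPP_herb and NPP_solvent were ganglia of rats labelled NPP that got the decoction (labelled herb) or solvent. Sham_herb and Sham_solvent were the same treatments in rats labelled Sham, Ctrl_solvent was control rats given solvent, and Ctrl was control rats with no solvent named. How the model was made, the ganglion level, the strain, age and sex of the rats, the dose and the times were not among the labels used here. Whether the 3 libraries of each group came from separate rats is not said either, so p-values measure the spread between these libraries, which may be technical.

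The pia and arachnoid, the soft meninges, wrap the spinal cord and follow the nerve roots to the ganglia, where they meet the perineurium and the fibrous capsule. Their fibroblasts and barrier cells are known for solute transporters, connexins that couple them to each other, retinoic acid synthesis and secreted growth factors. Fibroblasts inside and around the nerve instead are known for collagens and small proteoglycans. In RNA from whole ganglia, fewer cells of a type and less RNA per cell cannot be told apart.

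Depth was 18170925 to 50289652 counted reads a library. Across genes, pairs of replicate libraries had a median r of 0.977. No gene of the 17043 tested passed an adjusted p of 0.05 in any of the 8 comparisons made with edgeR, which is 0% in each. An unadjusted p under 0.05 was found for 238 (NPP_herb over Sham_herb) to 2218 genes (Ctrl_solvent over Ctrl). The count was 319 in NPP_herb over NPP_solvent and 580 for the herb effect in NPP rats minus that in Sham rats. Counts of 238, 319 and 580 are below what a cut at 0.05 gives among 17043 genes when nothing differs. The libraries differed in how levels depend on gene length: the slope of a library's log2 deviation on log2 gene length was lowest, at -0.161, in Sham_solvent replicate 1 and highest, at 0.129, in NPP_solvent replicate 3. These 2 libraries held the highest and the lowest mean level of the 9 genes. NPP_herb replicate 3 was close to the second, with a slope of 0.108, yet its mean log2 deviation of the 9 genes was above 0, at 0.22. Ctrl replicates 2 and 3 had 1.56 and 4.75 CPM of Y-linked genes in sum (CPM is a gene's reads scaled to the library's total), against 127 to 177 in the other 16 libraries.

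As a check of the name, 39 other genes of meningeal fibroblasts and arachnoid barrier cells were looked up, none of them among the 9. All 39 were in the table and 34 passed the filter, while others, such as Krt18 and Lama1, did not. Among the most abundant were the epithelial cadherin Cdh1 at a mean of 239 CPM over the 18 libraries and the matrix protein Mgp at 126 CPM. The barrier-layer genes Cldn11 (a tight junction claudin) and Foxc1 (a forkhead factor of meningeal development) averaged 17.9 and 9.10 CPM. Levels alone do not show which cells of the ganglion made these transcripts.

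Promoters from RefSeq (build GRCr8, while the deposited tables rest on mRatBN7.2), from 250 bases before to 50 bases after the start, were at hand for 5 of the 9 genes: Gjb2, Cemip, Igf2 (2 windows), Ptgds and Aldh1a2. They are shown for Gjb2, for its neighbour in the connexin family Gjb6, the gene with the highest mean within-group correlation to the 9, and for Ptgds, the only one of the 5 with a match. Capitals mark matches to the letters searched on both strands: forkhead GTAAACA, the nuclear receptor core AGGTCA, of which retinoid receptors among others bind a pair, ZIC CCTGCTG, T-box GGTGTGA and AP-1 TGAGTCA. The Gjb2 window lies at chr15:35381904-35382203, the Gjb6 window at chr15:35410089-35410388 and the Ptgds window at chr3:28682929-28683228, all on the minus strand.
Gjb2: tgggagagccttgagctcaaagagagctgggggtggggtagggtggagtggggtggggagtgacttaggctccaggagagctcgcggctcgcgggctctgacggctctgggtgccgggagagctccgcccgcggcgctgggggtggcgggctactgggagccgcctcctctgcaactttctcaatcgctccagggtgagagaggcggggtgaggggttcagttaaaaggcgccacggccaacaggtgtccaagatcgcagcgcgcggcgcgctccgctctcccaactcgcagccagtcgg
Gjb6: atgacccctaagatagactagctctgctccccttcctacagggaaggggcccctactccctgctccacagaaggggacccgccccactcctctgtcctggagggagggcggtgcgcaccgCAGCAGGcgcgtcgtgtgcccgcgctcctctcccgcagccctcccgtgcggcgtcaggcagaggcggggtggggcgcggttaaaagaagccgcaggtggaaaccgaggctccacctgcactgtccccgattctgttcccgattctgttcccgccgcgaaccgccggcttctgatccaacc
Ptgds: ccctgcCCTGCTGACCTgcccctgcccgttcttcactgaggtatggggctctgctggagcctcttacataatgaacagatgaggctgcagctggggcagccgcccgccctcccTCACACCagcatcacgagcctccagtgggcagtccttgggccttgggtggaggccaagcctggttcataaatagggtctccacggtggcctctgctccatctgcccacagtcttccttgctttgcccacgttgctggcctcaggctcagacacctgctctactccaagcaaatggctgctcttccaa
In Ptgds the run begins with a ZIC match 244 bases before the start, and the last bases of that match are also part of a single nuclear receptor core on the other strand. A T-box match follows 137 bases before the start, on the other strand. Gjb6, of whose 2 windows the first is shown, held a ZIC match 130 bases before the start. Of the 33469 promoters of this length, 9.64% hold the ZIC letters, 16.2% the nuclear receptor core and 3.83% the T-box letters. The forkhead and AP-1 letters, found in 3.78% and 4.63% of all promoters, were in none of the 6 windows of the 9 genes, and 5 of those 6 windows had no match at all. The 6 windows held 60.7% to 76.0% G and C bases, against a median of 51.7% over all promoters.

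Gjb2 codes for connexin 26, a gap junction protein that couples meningeal fibroblasts. Its levels in replicates 1, 2 and 3 were 4.41, 4.13 and 3.68 CPM in NPP_herb, against 2.43, 1.73 and 1.39 CPM in NPP_solvent. In Sham rats they were 2.17, 3.04 and 1.96 CPM in Sham_herb, against 4.999, 3.10 and 4.39 CPM in Sham_solvent. Both pairs of groups were apart, with herb above solvent in NPP rats and below it in Sham rats, in the second case by the narrow gap between 3.04 and 3.10 CPM. Over all tested genes, 33 (0.194%) showed this crossing of non-overlapping groups; among the 9 it was Gjb2 and Ptgds, and the crossing is what the choice of genes looked for. On the log2 scale the fold change of Gjb2 was 1.14 ± 0.28 (SE) between NPP_herb and NPP_solvent and -0.80 ± 0.27 between Sham_herb and Sham_solvent. Control rats had 4.38, 2.92 and 4.16 CPM in Ctrl_solvent and 2.32, 3.10 and 2.06 CPM in Ctrl, so the 2 groups overlapped. From high to low, the group means were 4.16 ± 0.97 CPM (SD, n = 3) in Sham_solvent, 4.07 ± 0.37 in NPP_herb, 3.82 ± 0.79 in Ctrl_solvent, 2.49 ± 0.55 in Ctrl, 2.39 ± 0.57 in Sham_herb and 1.85 ± 0.53 in NPP_solvent. Neighbours in this order differed by less than the larger of their SDs, except Ctrl_solvent and Ctrl.

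Among the other 9 connexins, all tested, the median log2 fold change was 0.19 in NPP_herb over NPP_solvent and -0.09 in Sham_herb over Sham_solvent, and none passed in either. The most abundant, Gja1, Gjb1 and Gja4 at 35.2, 15.3 and 4.61 CPM, had log2 fold changes of 0.26 ± 0.13, -0.18 ± 0.17 and 0.07 ± 0.23 in NPP rats and of -0.09 ± 0.13, -0.14 ± 0.17 and 0.31 ± 0.23 in Sham rats. Gjb6, connexin 30, the partner of connexin 26 in many gap junctions, had larger values: its log2 fold change was 1.62 ± 0.69 in NPP rats and -1.74 ± 0.67 in Sham rats.

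Slc6a13 is the GABA transporter GAT2, known in mice and rats from the leptomeninges. It had 7.15, 4.40 and 2.65 CPM in NPP_herb, against 3.37, 1.60 and 1.14 CPM in NPP_solvent. It had 1.68, 2.73 and 2.55 CPM in Sham_herb, against 8.21, 5.21 and 1.59 CPM in Sham_solvent. Both pairs overlapped, because Sham_solvent replicate 3 was the lowest of its pair and NPP_herb replicate 3 lay under NPP_solvent replicate 1. Log2 fold changes were 1.22 ± 0.56 in NPP rats (0.79 without NPP_herb replicate 1) and -1.11 ± 0.55 in Sham rats (-0.57 without Sham_solvent replicate 1). Control rats had 6.65, 3.27 and 5.38 CPM in Ctrl_solvent, against 4.24, 4.61 and 1.83 CPM in Ctrl, again with overlap. The group means ran from 5.10 ± 1.71 CPM in Ctrl_solvent to 2.03 ± 1.18 CPM in NPP_solvent, and each group differed from the next in that order by less than the larger of their SDs. Of 4 tested transporters of GABA, taurine and creatine in the same family, none passed; Slc6a8 and Slc6a6, the creatine and taurine transporters, had log2 fold changes of -0.04 ± 0.12 and 0.07 ± 0.20 in NPP rats and of 0.02 ± 0.12 and 0.47 ± 0.20 in Sham rats.

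Ptgds makes prostaglandin D2 and is also secreted as a carrier of small lipophilic molecules, and the leptomeninges are among its main sources in the brain. It had 347, 195 and 208 CPM in NPP_herb, against 193, 101 and 20.5 CPM in NPP_solvent. It had 104, 148 and 173 CPM in Sham_herb, against 940, 237 and 265 CPM in Sham_solvent. Both pairs were apart, yet in NPP rats only just, at 194.96 and 192.94 CPM, while Sham_solvent replicate 1 was far above the other 2 of its group. The log2 fold changes were 1.26 ± 0.74 in NPP rats and -1.76 ± 0.75 in Sham rats. Without Sham_solvent replicate 1 the second was -0.83, and the first was 0.77 without NPP_solvent replicate 3 and 2.04 without NPP_solvent replicate 1. Control rats had 173, 257 and 139 CPM in Ctrl_solvent and 336, 120 and 101 CPM in Ctrl, which overlapped. Group means ran from 481 ± 398 CPM in Sham_solvent to 105 ± 86.3 CPM in NPP_solvent, and each group differed from the next in order by less than the larger of their SDs. Of the 4 tested genes around prostaglandin D2 none passed: the aldose reductase Akr1b1, the cyclooxygenase Ptgs1 and the blood-cell synthase Hpgds had log2 fold changes of -0.02 ± 0.17, 0.61 ± 0.26 and -0.52 ± 0.64 in NPP rats and of -0.25 ± 0.17, -0.01 ± 0.26 and -0.30 ± 0.63 in Sham rats.

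Aldh1a2 makes retinoic acid from retinaldehyde, an activity for which embryonic and adult meninges are known. It had 2.96, 2.17 and 3.54 CPM in NPP_herb, against 1.80, 0.55 and 0.33 CPM in NPP_solvent. It had 0.75, 5.43 and 1.14 CPM in Sham_herb, against 7.48, 3.54 and 2.47 CPM in Sham_solvent. The NPP groups were apart, and the Sham groups overlapped through Sham_herb replicate 2 alone. The log2 fold changes were 1.73 ± 0.70 in NPP rats and -0.89 ± 0.65 in Sham rats. With single libraries left out, the first ran from 1.31 to 2.73, the highest without NPP_solvent replicate 1. The second was -2.25 without Sham_herb replicate 2 and -0.32 without Sham_solvent replicate 1. Both kept their sign, and their size changed with single libraries. Control rats had 3.46, 2.19 and 3.63 CPM in Ctrl_solvent, against 2.39, 1.504 and 1.83 CPM in Ctrl, with overlap. Group means ran from 4.49 ± 2.64 CPM in Sham_solvent to 0.89 ± 0.79 CPM in NPP_solvent, and only the lowest step in that order, from Ctrl at 1.91 ± 0.45 CPM, was larger than both SDs. These are low values, from 12 reads in NPP_solvent replicate 3 to 184 reads in the library with most. Of 13 tested genes of retinoic acid synthesis, binding and response, none passed, with 11 higher in NPP_herb than NPP_solvent (median log2 fold change 0.11) and 11 lower in Sham_herb than Sham_solvent (median -0.34). The related enzyme Aldh1a1, the receptor Rarg and the binding protein Crabp2, the most abundant of them, had log2 fold changes of 0.22 ± 0.31, 0.07 ± 0.16 and 0.28 ± 0.27 in NPP rats and of -0.82 ± 0.31, -0.11 ± 0.16 and -0.52 ± 0.27 in Sham rats.

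Igf2 is a secreted growth factor that adult brain makes mainly in the meninges, choroid plexus and vessels. It had 17.2, 12.8 and 17.5 CPM in NPP_herb, against 14.6, 5.10 and 5.11 CPM in NPP_solvent. It had 7.98, 12.2 and 8.14 CPM in Sham_herb, against 27.3, 15.4 and 23.9 CPM in Sham_solvent. The Sham groups were apart, and the NPP groups overlapped because NPP_solvent replicate 1 lay above NPP_herb replicate 2. The log2 fold changes were 0.94 ± 0.37 in NPP rats (1.63 without NPP_solvent replicate 1) and -1.23 ± 0.37 in Sham rats. Control rats had 12.4, 18.7 and 9.89 CPM in Ctrl_solvent, against 12.8, 9.75 and 8.62 CPM in Ctrl, with overlap. Sham_solvent, at 22.2 ± 6.11 CPM, stood above NPP_herb, at 15.8 ± 2.64 CPM, by more than either SD, and the groups below, down to NPP_solvent at 8.28 ± 5.50 CPM, each differed from the next by less. Of 11 tested genes of the IGF system none passed. Its most abundant members, the binding proteins Igfbp7, Igfbp4 and Igfbp6, had log2 fold changes of 0.07 ± 0.21, -0.15 ± 0.25 and -0.08 ± 0.42 in NPP rats and of -0.16 ± 0.21, -0.48 ± 0.25 and -0.84 ± 0.42 in Sham rats.

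Bmp7 is a ligand of the bone morphogenetic protein family that meninges secrete. It had 1.505, 1.62 and 1.88 CPM in NPP_herb, against 1.496, 1.32 and 3.43 CPM in NPP_solvent. It had 1.01, 1.29 and 0.75 CPM in Sham_herb, against 4.39, 2.26 and 2.09 CPM in Sham_solvent. The Sham groups were apart and the NPP groups overlapped, with the highest NPP library a solvent one. The log2 fold changes were -0.32 ± 0.39 in NPP rats, or 0.25 without NPP_solvent replicate 3, and -1.51 ± 0.39 in Sham rats. Control rats had 2.11, 2.73 and 3.06 CPM in Ctrl_solvent, against 2.25, 3.30 and 1.76 CPM in Ctrl, with overlap. Sham_herb, at 1.02 ± 0.27 CPM, was lowest, below NPP_herb at 1.67 ± 0.19 CPM by more than either SD, while the steps from there up to Sham_solvent at 2.91 ± 1.28 CPM were each smaller than the larger of the 2 SDs. Of 19 other genes of BMP signalling, all tested, none passed; the receptor Bmpr2, the target Id3 and the signal carrier Smad9, the most abundant, had log2 fold changes of 0.13 ± 0.09, 0.14 ± 0.23 and -0.01 ± 0.18 in NPP rats and of 0.14 ± 0.09, -0.32 ± 0.23 and 0.23 ± 0.18 in Sham rats.

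The 3 matrix genes differed from each other in level. Per gene length, the collagen-binding proteoglycan Dcn stood at group means of 165 to 324 FPKM (fragments scaled to gene length and library size), with Ptgds beside it at 123 to 547 FPKM, while the basement membrane and elastic fibre protein Fbln1 and the hyaluronan-degrading protein Cemip stood at 2.41 to 4.92 and 0.39 to 0.71 FPKM. The other 5 genes lay between 0.25 and 2.73 FPKM. Dcn and Ptgds thus made up most of the transcripts of the 9.

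Fbln1 had 9.37 to 14.4 CPM in NPP_herb, against 8.70 to 11.6 CPM in NPP_solvent. It had 7.40 to 9.49 CPM in Sham_herb, against 14.8 to 15.6 CPM in Sham_solvent. The NPP groups overlapped and the Sham groups did not. Fbln1 had log2 fold changes of 0.36 ± 0.20 in NPP rats and -0.82 ± 0.20 in Sham rats. Fbln1 was highest in Ctrl_solvent at 17.4 ± 1.76 CPM, above Sham_solvent at 15.2 ± 0.42 CPM by more than either SD, and each group below differed from the next by less than the larger of their SDs, down to Sham_herb at 8.67 ± 1.11 CPM. Cemip had 7.201 to 8.79 CPM in NPP_herb, against 3.97 to 4.94 CPM in NPP_solvent, and 5.92 to 6.83 CPM in Sham_herb, against 6.21 to 10.4 CPM in Sham_solvent. Here it was the NPP groups that were apart, with log2 fold changes of 0.82 ± 0.21 in NPP rats and -0.31 ± 0.20 in Sham rats, the second of which was -0.082 without Sham_solvent replicate 1. NPP_solvent was lowest for Cemip, at 4.45 ± 0.48 CPM, below Ctrl at 6.30 ± 1.30 CPM by more than either SD, as was Sham_herb at 6.43 ± 0.46 CPM below NPP_herb at 7.82 ± 0.85 CPM. The hyaluronan genes Cd44, Cemip2 and Hapln1, a receptor, a relative of Cemip and a link protein, had log2 fold changes of -0.12 ± 0.13, -0.03 ± 0.15 and 0.04 ± 0.24 in NPP rats and of 0.34 ± 0.13, 0.48 ± 0.15 and -0.04 ± 0.24 in Sham rats, and none of 10 tested passed.

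Dcn, the marker of fibroblasts in general, had 601, 474 and 416 CPM in NPP_herb, against 519, 465 and 650 CPM in NPP_solvent. It had 391, 580 and 427 CPM in Sham_herb, against 609, 756 and 657 CPM in Sham_solvent. The NPP groups overlapped widely and the Sham groups were apart by the gap between 580 and 609 CPM. Its log2 fold changes were -0.13 ± 0.22 in NPP rats and -0.53 ± 0.22 in Sham rats. Dcn was highest in Sham_solvent at 674 ± 75.02 CPM and lowest in Ctrl at 341 ± 117 CPM, each apart from its neighbour in order by more than either SD, and the 4 groups between differed from the next by less.

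**Figure D1:**
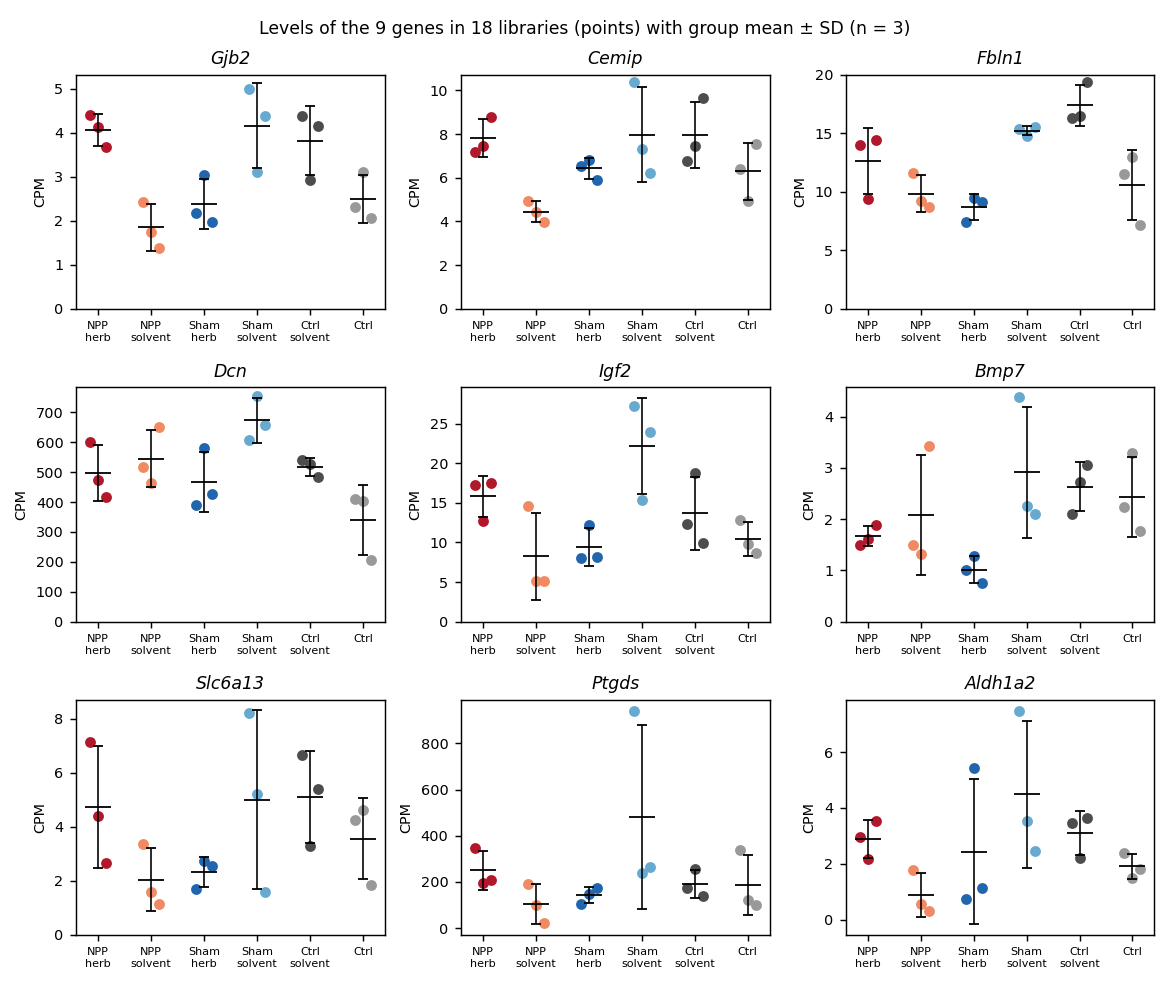
Levels of the 9 genes in CPM (y axis) by group (x axis), each point 1 library and the bar the group mean with its SD (n = 3). For Gjb2 all 3 NPP_herb points lie above all 3 NPP_solvent points and all 3 Sham_herb points below all 3 Sham_solvent points; Dcn in NPP rats shows no such gap, and 1 Sham_solvent library stands at 940 CPM of Ptgds.

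Set side by side, 7 of the 9 genes were higher in NPP_herb than in NPP_solvent, the 2 others being Bmp7 and Dcn, against 47.7% of all tested genes, and all 9 were lower in Sham_herb than in Sham_solvent, where 50.7% of all tested genes were higher. Groups were apart for 4 genes in NPP rats (Gjb2, Cemip, Ptgds and Aldh1a2; 2.69% of all tested genes were apart in that direction) and for 6 in Sham rats (all but Cemip, Slc6a13 and Aldh1a2; 6.06% of all tested genes). The herb effect in NPP rats minus that in Sham rats was positive for all 9 (47.7% of all tested genes) and ran from 0.40 ± 0.31 for Dcn to 3.02 ± 1.06 for Ptgds, with 2.32 ± 0.78 for Slc6a13, 2.62 ± 0.95 for Aldh1a2, 2.18 ± 0.52 for Igf2 and 1.94 ± 0.39 for Gjb2. These values chose the genes. Without Sham_herb replicate 2 the difference for Aldh1a2 was 3.98. Without NPP_solvent replicate 1 that for Igf2 was 2.86 and passed edgeR's adjusted threshold, as those for Gjb2 and Igf2 did under DESeq2's Wald test with all libraries, but having been picked for this difference neither gene is tested by it. Without NPP_solvent replicate 3 and Sham_solvent replicate 1 together, a setting chosen after seeing the data, the difference was 1.60 for Ptgds, 1.63 for Aldh1a2, 1.49 for Slc6a13 and 1.62 for Gjb2.

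The herb contrasts share the solvent groups with 2 other comparisons. In NPP_solvent over Sham_solvent all 9 genes were lower (51.3% of all tested genes were higher), with log2 fold changes of -0.31 ± 0.22 (Dcn) to -2.35 ± 0.70 (Aldh1a2), and 6 were apart, namely Gjb2, Cemip, Igf2, Fbln1, Ptgds and Aldh1a2 (3.67% of all tested genes). In NPP_herb over Sham_herb all 9 were higher (49.1% of all tested genes), by 0.09 ± 0.22 (Dcn) to 1.02 ± 0.55 (Slc6a13), and 5 were apart (Gjb2, Cemip, Igf2, Bmp7 and Ptgds; 3.18% of all tested genes). With single libraries left out, Dcn there ran from -0.068 to 0.29 and Aldh1a2 from -0.17 to 1.62, so for these 2 genes the direction turned. Against Ctrl_solvent, 4 genes were apart and lower in NPP_solvent (Gjb2, Cemip, Fbln1 and Aldh1a2; 4.11% of all tested genes), and 2 were apart in Sham_solvent, Dcn higher (3.02%) and Fbln1 lower (4.12%).

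Control rats with and without solvent were the groups that the choice of genes did not use. All 9 genes were higher in Ctrl_solvent than in Ctrl (51.1% of all tested genes), by 0.03 ± 0.73 (Ptgds) to 0.72 ± 0.20 (Fbln1) on the log2 scale, and none passed edgeR's quasi-likelihood test with Benjamini-Hochberg adjustment over all genes. For 2 of the 9 the direction turned when 1 library was left out: Ptgds was -0.21 without Ctrl replicate 2, -0.27 without Ctrl replicate 3 and -0.26 without Ctrl_solvent replicate 2, and Bmp7 was -0.070 without Ctrl replicate 3. Fbln1 had 16.3, 16.5 and 19.4 CPM in Ctrl_solvent, against 11.6, 13.0 and 7.18 CPM in Ctrl (adjusted p = 0.142). Dcn had 540, 527 and 485 CPM in Ctrl_solvent, against 412, 404 and 206 CPM in Ctrl (log2 fold change 0.60 ± 0.22, edgeR adjusted p = 0.257). These 2 genes were apart between the groups, as were 8.45% of all tested genes in that direction. Gjb2, with overlap, was next at 0.61 ± 0.27 (edgeR adjusted p = 0.352). Fbln1 passed under DESeq2's Wald test (adjusted p = 0.0266), where 471 genes did, against 0 in edgeR; over the other settings its adjusted p was 0.0689 to 0.579. Ctrl replicate 3 was the lowest library for both matrix genes, and without it their log2 fold changes were 0.50 and 0.34. Ctrl replicates 2 and 3 stood apart in Y-linked genes, as given above, and macrophage markers were higher in Ctrl_solvent in sum: 11 of 12 markers were higher (median log2 fold change 1.88, against 0.01 over all genes), with summed levels of 165 to 533 CPM in Ctrl_solvent and 83.03 to 150 CPM in Ctrl and no marker without reads in either group. All 8 myelinating Schwann cell markers were lower (median -0.28, summed levels of 9333 to 11880 CPM in Ctrl_solvent and 10450.01 to 15905 CPM in Ctrl), as were 15 of 16 neuron markers (median -0.18, 29703 to 42214 CPM in Ctrl_solvent and 40708 to 41972 CPM in Ctrl) and all 8 red blood cell markers (median -0.40). Their part in these results was not tested.

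Whether the 9 genes vary together was read from the deviations of each library from the mean of its own group on log2 CPM. This leaves out the group differences that chose the genes. It does not leave out single libraries that stood high or low within the NPP and Sham groups, such as Sham_solvent replicate 1. Such libraries entered both the choice of genes and these deviations, so the 2 are not independent. Of the 36 pairs, 33 had a positive within-group r (Pearson's), with a median of 0.37 and a range from -0.50 (Cemip and Dcn) to 0.71 (Igf2 and Ptgds). Over all pairs of 1 of the 9 with another tested gene, 49.4% were positive. In exact permutation tests that reordered the libraries within groups (46656 orders, 2-sided), 8 pairs had an unadjusted p under 0.05 and none passed after adjustment over the 36 pairs. An r of at least 0.43, the lowest positive r among those 8, was found in 15 pairs (41.7%), against 8.32% of pairs of 1 of the 9 with another gene.

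Aldh1a2 was in 6 of those 8 pairs and had the highest mean r with the other 8 genes, 0.46. With Gjb2 it had r = 0.65 and Spearman's rho = 0.59 (exact permutation p = 0.0350 for r, adjusted p = 0.198), and 0.45 once the 2 libraries farthest out in Gjb2 were left out. With Slc6a13 it had r = 0.58 and rho = 0.57 (exact permutation p = 0.0177, adjusted p = 0.198), and 0.59 without the 2 libraries farthest out in Slc6a13. With Cemip it had r = 0.54 and rho = 0.60 (exact permutation p = 0.00748, adjusted p = 0.198), and 0.47 without the 2 libraries farthest out in Cemip. Igf2 and Ptgds, with the highest r of 0.71 and rho of 0.64 (exact permutation p = 0.0415, adjusted p = 0.198), kept 0.60 without the 2 libraries farthest out in Igf2 and 0.55 without the 2 farthest out in Ptgds. Igf2 and Aldh1a2 had r = 0.62, then 0.63 without the 2 farthest out in Igf2 and 0.38 without the 2 in Aldh1a2. In the same way, first gene then second, Fbln1 and Aldh1a2 went from 0.43 to 0.54 and 0.33. Ptgds and Aldh1a2 went from 0.58 to 0.37 and 0.60, and Igf2 and Fbln1 from 0.47 to 0.47 and 0.45.

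Within groups over the 18 libraries, the pairs of the 9 genes were uneven in r. Looked at after the values were seen, and so with no test, 6 genes (Gjb2, Slc6a13, Ptgds, Aldh1a2, Igf2 and Fbln1) had positive r in all 15 of their pairs, from 0.29 to 0.71 with a median of 0.49. The 21 pairs with Cemip, Bmp7 or Dcn had a median of 0.16 and ran from -0.50 to 0.54. Bmp7 reached r = 0.43 with none of the other 8 genes and Cemip and Dcn with 1 each, Aldh1a2 and Fbln1. Ranked over all 17042 other tested genes, 5 of the other 8 members stood in the top 5% for Aldh1a2 and 4 for Igf2, but 1 for Gjb2, Cemip, Fbln1 and Dcn each and none for Bmp7.

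**Figure D2:**
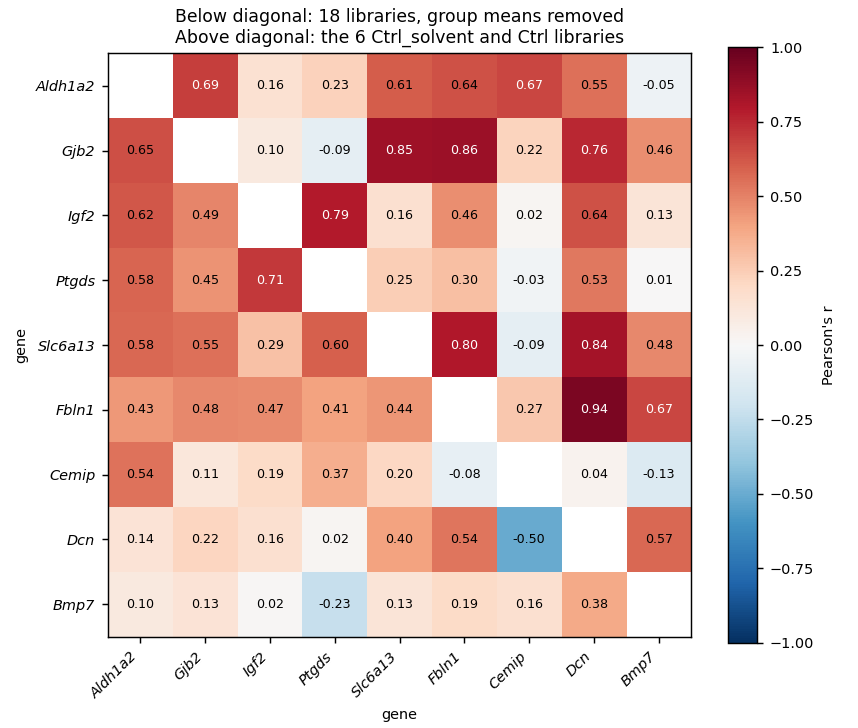
Pearson's r of log2 CPM for each pair of the 9 genes, from -1 (blue) to 1 (red), below the diagonal over 18 libraries with group means removed and above it over the 6 Ctrl_solvent and Ctrl libraries. Below the diagonal the pairs among the first 6 genes run from 0.29 to 0.71, and the last 3 rows, Cemip, Dcn and Bmp7, are paler and hold the negative values.

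Over the 6 Ctrl_solvent and Ctrl libraries with their group means kept, 31 of 36 pairs were positive with a median r of 0.46, and again none passed after adjustment (smallest adjusted p = 0.233, exact permutation test over 720 orders). There the highest r was that of the 2 matrix genes Fbln1 and Dcn, 0.94 with a rho of 0.71. With group means removed, these 6 libraries gave a median r of 0.18 with 23 of 36 pairs positive, and the r of Igf2 and Aldh1a2 was -0.38. The 12 NPP and Sham libraries gave a median of 0.40. Over all 18 libraries with the group pattern left in, which the choice of genes fixes in part, the median was 0.56 and 35 pairs were positive. Without NPP_solvent replicate 3 and Sham_solvent replicate 1, chosen after seeing the data, 2 pairs in place of 8 kept an unadjusted p under 0.05.

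Single libraries stood high or low in most of the 9 genes at once. The mean of the 9 genes' log2 deviations was highest in Sham_solvent replicate 1 at 1.11, where all 9 were above their mean over the 18 libraries, and lowest in NPP_solvent replicate 3 at -1.03. NPP_solvent replicate 2 (-0.79) and Sham_herb replicates 1 and 3 (-0.67 and -0.48) had all 9 below. Sham_herb replicate 2, of the same group, stood at 0.04 with 4 of 9 below. Within groups, counted reads correlated with Gjb2 at r = -0.82 and with the other 8 genes at -0.52 to 0.10, and the gene length slope with Gjb2 at -0.60 and Ptgds at -0.54. The median r of the gene length slope with the 9 genes was -0.12. With that slope in the model, the Sham log2 fold changes of Gjb2 and Ptgds were -0.46 and -0.74 in place of -0.80 and -1.76.

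The other genes of the meningeal and arachnoid list mostly ran in the same directions as the 9, in the same NPP and Sham libraries that chose the 9. The list was chosen with earlier results of these data known, so it is no independent check of the name. Of its 34 tested genes, 27 were higher in NPP_herb than in NPP_solvent, with a median log2 fold change of 0.38 (all genes -0.01), and 30 were lower in Sham_herb than in Sham_solvent, with a median of -0.60 (all genes 0.01). The herb effect in NPP rats minus that in Sham rats was positive for 31 with a median of 1.03 (all genes -0.02). None of them passed in any comparison, and at an unadjusted p under 0.05 the counts were 4 higher in NPP rats, 9 lower in Sham rats and 11 higher in the difference. Over all tested genes 0.909%, 5.49% and 1.89% were at that level. Without NPP_solvent replicate 3 and Sham_solvent replicate 1 the medians were 0.33, -0.39 and 0.83.

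The largest differences on that list, named after their values were seen, belonged to solute transporters and junction genes of the arachnoid. The organic anion transporter Slc22a8 had a difference of herb effects of 4.50 ± 1.01 and its relative Slc22a6 of 3.87 ± 1.30 on the log2 scale, both at mean levels under 1 CPM. Gjb6 followed at 3.36 ± 0.96, the claudin Cldn11 at 2.18 ± 0.65 and the exporter Slc47a1 at 2.07 ± 0.79 (edgeR adjusted p = 0.920 for each of the 5). Gjb6 had 3.22, 1.73 and 2.20 CPM in NPP_herb, against 1.76, 0.28 and 0.33 CPM in NPP_solvent. It had 1.04, 1.40 and 0.49 CPM in Sham_herb, against 6.62, 1.93 and 1.32 CPM in Sham_solvent, where replicate 1 was again the high one. Tbx18, a transcription factor on the same list, had the opposite sign, at -0.85. Of the abundant genes of the list, Cdh1 and Mgp spanned 209 to 292 and 55.9 to 226 CPM over the 18 libraries.

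**Figure D3:**
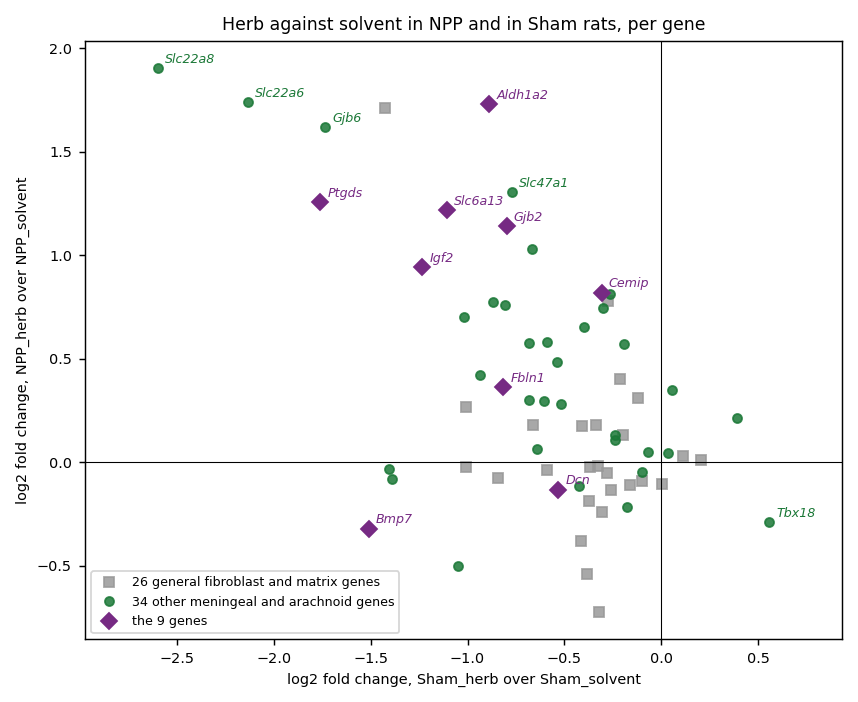
Log2 fold change of herb over solvent in Sham rats (x axis) and in NPP rats (y axis) for the 9 genes (purple diamonds), the 34 other meningeal and arachnoid genes (green circles) and 26 general fibroblast and matrix genes (grey squares). Of the 9, 7 fall in the upper left, higher with herb in NPP rats and lower in Sham rats, with Bmp7 and Dcn below the line at 0; green circles spread to the upper left as far as Slc22a8, and most grey squares sit near 0 in NPP rats (median -0.02) and left of 0 in Sham rats (median -0.32).

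General fibroblast and matrix genes differed from this in NPP rats. Of 26, all tested and none among the 9, 11 were higher in NPP_herb than in NPP_solvent (median -0.02) and 23 were lower in Sham_herb than in Sham_solvent (median -0.32), and none passed. The herb effect in NPP rats minus that in Sham rats was positive for 21 of the 26 (median 0.32). At an unadjusted p under 0.05 in edgeR 3 were higher in this difference, against 1.89% of all tested genes. Mfap4, named after its values were seen, had log2 fold changes of 1.71 ± 0.94 in NPP rats and -1.43 ± 0.92 in Sham rats. The matrix proteins Sparc and Fbln2 and the collagen chain Col1a2, the most abundant, had log2 fold changes of 0.03 ± 0.12, 0.13 ± 0.15 and -0.14 ± 0.22 in NPP rats and of 0.11 ± 0.12, -0.20 ± 0.15 and -0.26 ± 0.22 in Sham rats. The NPP median of this list rests on NPP_solvent replicate 3, without which it was 0.29 with 19 genes higher. Perineurial genes, 7 tested of 9, had medians of -0.09 in NPP rats and -0.12 in Sham rats. Itgb4, Slc2a1 and Ptch1 had log2 fold changes of 0.06 ± 0.16, -0.10 ± 0.12 and 0.11 ± 0.17 in NPP rats. In Sham rats these were 0.08 ± 0.16, -0.12 ± 0.12 and -0.003 ± 0.17. Still, 6 of the 7 perineurial genes were lower in Sham_herb than in Sham_solvent. At an unadjusted p under 0.05 in edgeR 3 were lower there, against 5.49% of all tested genes, and none passed. In control rats the meningeal list had a median of 0.25 in Ctrl_solvent over Ctrl, with 25 of 34 genes higher, against 0.04 for the general fibroblast list.

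Within groups the meningeal list also varied with the 9 genes. Its score (the mean of its genes' log2 deviations) had, with the mean of the 9, an r of 0.82, against 0.24 for the general fibroblast score, 0.61 for the perineurial and 0.74 for the connexin score. A mean r with the 9 over 0.3 was found for 14 of 34 meningeal genes (41.2%), 4 of 26 general fibroblast genes (15.4%), 3 of 7 perineurial genes, 6 of 9 connexins and 5.42% of all other genes. Neuron genes had the opposite sign, with 15 of 16 at a negative mean r and a score r of -0.53. Score r was 0.50 for satellite glia, 0.51 for endothelial and mural cells, 0.36 for myelinating Schwann cells and 0.58 for spinal cord genes. The median over genes of mean r with the 9 was 0.24 for the meningeal list, 0.27 for perineurial and 0.26 for myelinating Schwann genes. Varying with the 9 was thus not particular to the meningeal list. Libraries share their depth and composition, so these values describe the 18 libraries and carry no test.

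By the measure of mean within-group r, the 10 most similar of 13228 genes with at least 1 CPM were Gjb6 (0.56), Kank2, Net1, Amotl2, Zcchc24 (each 0.51), St3gal4, Slc47a1, Htra3 (each 0.50), Pm20d1 and Itga1 (each 0.49). Gjb6 was also positive with each of the 9, from 0.26 to 0.75, and Slc47a1 with each from 0.05 to 0.70; both stood on the meningeal list. The mean r over all 18 libraries, group pattern included, was 0.67 for Gjb6 and 0.61 for Slc47a1, and between -0.11 (Pm20d1) and 0.50 (Htra3) for the other 8. The lowest were Cs (-0.55), Zfyve27 (-0.54), Vps26b (-0.52), Traf3 (-0.51) and Crmp1 (-0.50), of which the citrate synthase Cs and the neuronal Crmp1 averaged 269 and 88.9 CPM.

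**Figure D4:**
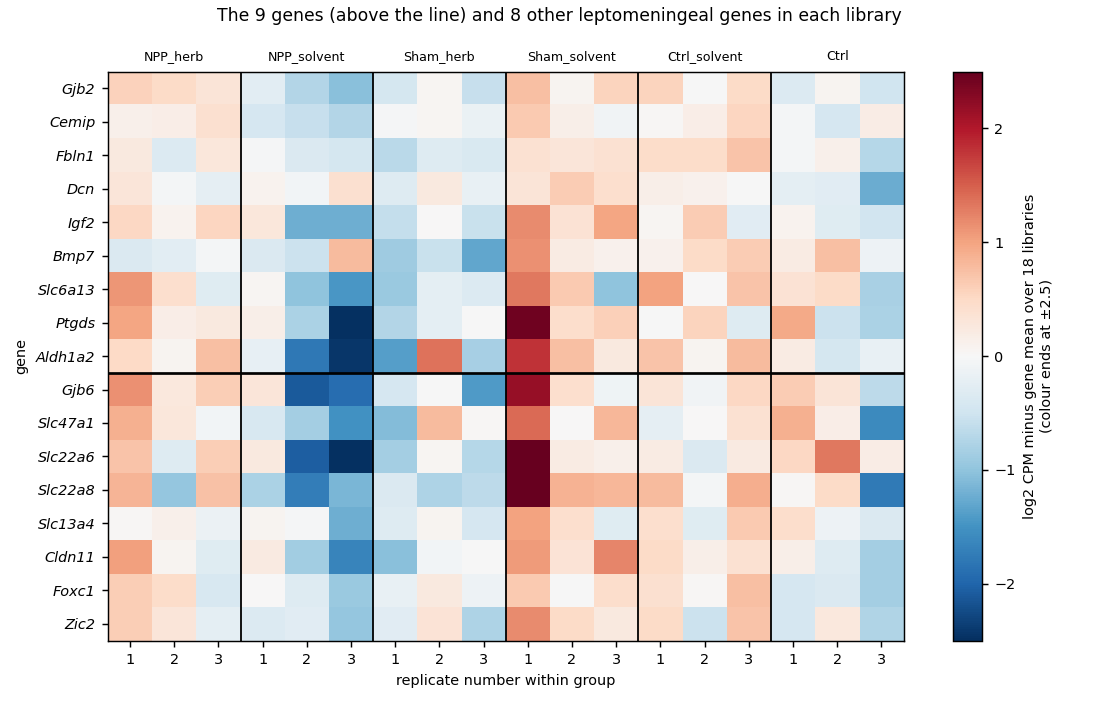
Deviation of log2 CPM from the gene's own mean, blue low and red high, for the 9 genes (above the line) and 8 other leptomeningeal genes picked after their values were seen, with libraries in columns by group. Sham_solvent replicate 1 is red in every row, and NPP_solvent replicate 3 is blue in every row but those of Bmp7 and Dcn.

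Markers of other cell types differed between the groups as well. Red blood cell genes, 8 of 8 tested and none without reads in any group, were higher in NPP_herb than in NPP_solvent (median log2 fold change 2.27) and lower in Sham_herb than in Sham_solvent (median -2.60), with summed levels of 124 to 724 CPM in NPP_herb, 21.2 to 145 CPM in NPP_solvent, 35.1 to 65.3 CPM in Sham_herb and 25.5 to 781 CPM in Sham_solvent. Macrophage markers, all with reads in each group, were lower for 9 of 12 in NPP_herb than in NPP_solvent (median -0.17) and for 11 of 12 in Sham_herb than in Sham_solvent (median -0.47), with summed levels of 118 to 150 CPM in NPP_herb, 122 to 279 CPM in NPP_solvent, 91.2 to 186 CPM in Sham_herb and 166 to 290 CPM in Sham_solvent. The 3 tested of 6 adipocyte markers were higher in NPP_herb than in NPP_solvent (median 0.33) and lower in Sham_herb than in Sham_solvent (median -0.80), at summed levels of 3.28 to 4.998 CPM in NPP_herb, 2.47 to 4.08 CPM in NPP_solvent, 1.97 to 3.64 CPM in Sham_herb and 3.18 to 7.02 CPM in Sham_solvent, with reads of 4, 6, 5 and 5 of the 6 markers in these groups. Their part in the group pattern of the 9 genes was not tested. Within groups the red cell score and the mean of the 9 had r = -0.18. Choroid plexus genes, 6 tested of the 7 in the table, had medians of -0.13 in NPP rats and -0.09 in Sham rats and a score r of 0.40 with the 9 genes within groups.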

How the data were processed

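The 18 libraries are RNA-seq of rat dorsal root ganglia. Per the labels' protocols, RNA was taken with TRIZOL and DNase, mRNA was bound to capture beads, a KAPA stranded kit was used and a NovaSeq instrument read both ends. The submitters' processing notes name HISAT2, DESeq2 and mRatBN7.2 without versions. Counter, strand setting and annotation: not given in the sources used here. Reads of overlapping, antisense or near-identical genes may therefore be mixed. One deposited table gives whole-number read counts per gene, which the authors left unscaled. The deposited FPKM table holds the authors' values per gene length and library size.

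The 9 genes and the 22 gene lists were chosen with earlier results of these data known. Genes were filtered with filterByExpr, which left 17043 (the 8635 removed held at most 0.0495% of a library's reads), scaled by TMM (0.946 to 1.04) and tested in R 4.3.3 with edgeR 4.0.16 (glmQLFit, robust, and glmQLFTest) over all 18 libraries with 1 coefficient per group (12 residual degrees of freedom). Adjusted p is Benjamini-Hochberg over all genes tested, with a threshold of 0.05. CPM values are scaled by TMM. Within-group r used log2 CPM with a prior count of 2 minus the group mean, in numpy 2.4.6 and scipy 1.17.1, with exact permutations. A list's score averages, over its tested genes, the deviation of log2 CPM from the gene's own mean. The models were tested on simulated data. No 2 libraries agreed within sampling noise (smallest chi-square per degree of freedom 12.9). Symbols were matched to the table, where 30 were repeated; none of the 9 was.

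Named genes were the 9, the 10 genes with the highest and the 5 with the lowest mean within-group r to them (mean of at least 1 CPM, no placeholder symbols), the 3 most abundant genes of a list described gene by gene, and any list gene past the threshold, of which there were none; a few genes that this rule names are not reported here. Other names are said to be chosen after their values were seen. Alternatives were DESeq2 1.42.0, its size factors, no filter, the compared groups alone, limma 3.58.1 on log2(FPKM + 0.1) and log2(FPKM + 1), a replicate block, the gene length slope as a covariate, other prior counts and each library left out.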

Additional observations from a re-analysis of the deposited data

Results flagged for a closer look

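For 2 of the 9 genes every library given herb lay above every library given solvent in NPP rats and below every one in Sham rats: Gjb2, with a herb effect in NPP rats minus that in Sham rats of 1.94 on the log2 scale, and Ptgds, with 3.02. The genes were picked in part for this difference, so it was not tested here. Leaving out each library in turn gave 1.76 to 2.18 for Gjb2 and 2.10 to 3.80 for Ptgds.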

How the results depend on the processing

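The number of genes past an adjusted p of 0.05, 0 in edgeR for all 8 comparisons, was under DESeq2's Wald test 1 in NPP_herb over NPP_solvent, 2 in NPP_herb over Sham_herb, 35 in Sham_solvent over Ctrl_solvent, 40 in NPP_solvent over Ctrl_solvent, 471 in Ctrl_solvent over Ctrl and 3 in the difference of herb effects (Gjb2 and Igf2 among them). Ctrl_solvent over Ctrl had 1 gene with no filter, with log2(FPKM + 0.1), with log2(FPKM + 1) and with the gene length slope. With each library left out, counts ran from 0 to 2 in NPP_herb over Sham_herb, 0 to 252 in Sham_solvent over Ctrl_solvent, 0 to 188 in NPP_solvent over Ctrl_solvent, 0 to 734 in Ctrl_solvent over Ctrl and 0 to 1 in the difference of herb effects (Igf2, 2.86 without NPP_solvent replicate 1), and stayed at 0 in the other 3; the 3 highest were without Ctrl_solvent replicate 2. The cause was not tested. Fbln1 passed under DESeq2's Wald test in Ctrl_solvent over Ctrl (0.72, adjusted p = 0.0266) and in NPP_solvent over Ctrl_solvent (-0.82). The second comparison holds NPP_solvent, a group that the choice of genes used, so it is a description and no test of Fbln1. In Ctrl_solvent over Ctrl with each library left out, Bmp7 ran from -0.070 (without Ctrl replicate 3) to 0.40. Ptgds in that comparison ran from -0.27 (without Ctrl replicate 3) to 0.78, and was also below 0 without Ctrl replicate 2 (-0.21) and Ctrl_solvent replicate 2 (-0.26). Of the 36 pairs 0 passed in each setting; the median r was 0.28 to 0.41 with a library left out, and the r of Igf2 and Aldh1a2 was -0.38 in Ctrl and Ctrl_solvent alone. With log2(FPKM + 1), which understates changes of low genes, the meningeal list's median was -0.27 in Sham rats and 0.43 in the difference of herb effects. Deviations of same-numbered libraries had r from -0.282 to 0.231, and 4 of 18 libraries were closest to their own number. Between herb and solvent these r were 0.07, 0.19 and 0.23 in NPP rats and 0.09, 0.18 and 0.05 in Sham rats. With 3 libraries a group, whether numbers pair them cannot be settled from this. With the replicate block 0 genes passed in each comparison and 0 pairs passed. Of the pairs, 1 had an unadjusted permutation p under 0.05, and the median r was 0.27. Depth limits Aldh1a2 most, with 12 reads in 1 library.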
